A study of Homo sapiens with 12 samples.

Results

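The DEAD and DEAH box helicases of HEK 293T cells were followed in RNA from cells given 1 µM of a compound known here by its code name, PDP. Members were the genes whose symbol was DDX or DHX, a number and at most 1 further letter, with a control value of at least 1 FPKM (a level scaled for gene length and library size) in the 3 h table. The choice rule left out 2 further symbols and any gene on chromosome Y. Of 56 matching symbols, 3 were left out in this way, 8 lay under the minimum and 45 were members, out of 58083 genes in all and 13455 genes at 1 FPKM or more. All 45 had a test result in every table of the authors. The rule used the control level, and the same control stands in the comparisons at 3 h, 24 h and 72 h. That level and the changes at all times are therefore given as descriptions. A minimum set on the control can leave out genes that are low there and higher with PDP, as with DHX58 at 24 h.

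HEK 293T is an established line from human embryonic kidney and expresses the large T antigen of SV40. The 4 RNA groups of 2 samples each were cells given DMSO, the solvent, for 3 h, and cells harvested 3 h, 24 h or 72 h after 1 µM of PDP was added. The other 4 samples were 2 pull-downs of G-quadruplexes by a small molecule from purified, annealed genomic DNA and 2 inputs. The same 3 h DMSO control stood in all 3 RNA tables, so time in culture and PDP cannot be told apart at 24 h and 72 h.

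DEAD and DEAH box proteins use ATP to unwind short RNA duplexes or to strip proteins from RNA. They are named after a stretch of amino acids in their ATP-binding core. Most act in 1 step of RNA life: folding and cutting of ribosomal RNA in the nucleolus, remodelling of the spliceosome, release of mRNA at the nuclear pore, translation, or decay. G-quadruplexes are stacked guanine structures in DNA or RNA, and some helicases of this family are known to unwind them.

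The tables held 1 FPKM value per gene and condition, pooled over both replicates, so there is no SD between samples, and library depth is not known. A gene is "called" here where the authors' deposited table gives a q-value under 0.05. A standard error (SE) is the one implied by the test statistic in that table. In 2 of 14 called members at 24 h and 4 of 10 at 72 h the change was under 1.96 times this SE, so SE and deposited p-value do not follow from each other by a normal distribution. The sample titles mark the replicates as bio1 and bio2. The labels do not say further whether these were separate cultures, so it is not known how far the p-values reflect more than technical spread. The control values of the 3 tables differed by a constant factor (1.04 at 24 h and 0.968 at 72 h, relative to 3 h). Values of single genes below were therefore put on the scale of the 3 h control, while each change was computed within its own table.

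Of 8 genes fixed as markers of HEK 293T cells, 6 reached 1 FPKM in the control, and PAX2 (0.896 FPKM) and INA (0.839 FPKM) did not. At 24 h 4 of these 8 were called higher, where 9.21% of all tested genes were, and at 72 h 6 of 8, where 19% were. Of 5 markers of other cells, PTPRC, ALB, CD34 and PECAM1 were under 1 FPKM in every condition and COL1A1 stood at 12.6 FPKM in the control. Genes encoded on the mitochondrial genome (symbols starting with MT-) took 17.8% of all FPKM in the control, 16.6% with PDP at 3 h, 13.2% at 24 h and 7.94% at 72 h. Their part in the changes of the helicases was not tested.

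In the control, the 45 helicases ranged from 5.73 to 393 FPKM with a median of 36.9 FPKM, against a median of 13.0 FPKM over all genes at 1 FPKM or more. DDX5 stood highest at 393 FPKM, then its paralogue DDX17 at 355 FPKM, the export helicase DDX39B at 312 FPKM and DDX3X, a helicase of translation initiation, at 261 FPKM. DDX21 and DHX9 followed at 205 FPKM each, and DHX15 at 145 FPKM. Their order within neighbouring ranks cannot be set against a spread between samples. The members just above the minimum were DDX12P (5.73 FPKM) and DDX19B (5.80 FPKM), and those just below it were DDX60 (0.699 FPKM) and DDX58 (0.660 FPKM). No member lay between 1 and 5 FPKM.

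Some 3 h after PDP, none of the 45 helicases was called, and none had an unadjusted p under 0.05 (the smallest was 0.357) in the authors' deposited table. Over all tested genes 0.115% were called at that time, and 0.104% of those with a control of at least 1 FPKM. The median log2 change of the members was -0.02, or 0.04 when each condition was scaled to the same FPKM sum. Changes ran from -0.20 for DDX59 to 0.45 for DDX19B, a low gene with an SE of 0.84.

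After 24 h, 14 of the 45 helicases were called, all of them lower than the control. This is 31.1% of the members, beside 17.5% of all tested genes called in either direction, 8.29% called lower and 9.21% called higher. Among tested genes with a control of at least 1 FPKM the shares were 17.8% in either direction, 9.46% lower and 8.33% higher. The backgrounds are not matched for level or SE. The median SE was 0.30 for the members, 0.36 for these genes and 0.40 for all tested genes. The part of this in the shares called was not tested. The value with PDP lay below the control for 43 of 45 members, against 55.2% of the genes with a control of at least 1 FPKM. The median log2 change was -0.34, against -0.06 over those genes. With equal FPKM sums 38 of 45 members lay below the control, and their median was -0.18. That scaling adds 0.17 to the change of every gene. The difference of medians, members minus those genes, stays at -0.29. Summed over the family, FPKM decreased by 24.5%, from 3493 to 2639, and the family's share of all FPKM went from 0.5001% to 0.425%.

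After 72 h, 7 helicases were called lower and 3 higher, beside 31.8% of all tested genes called in either direction, 12.8% lower and 19% higher. Among tested genes with a control of at least 1 FPKM the shares were 33.3%, 14.5% and 18.7%. The members' 22.2% called in either direction and 6.67% called higher lie under the matching backgrounds, and their 15.6% called lower lies slightly above. The median log2 change was -0.03, against 0.06 over genes with a control of at least 1 FPKM. Of the 45 members, 28 (62.2%) lay below the control, against 46.3% of the genes with a control of at least 1 FPKM. With equal FPKM sums 31 of the 45 lay below it. With equal FPKM sums the median of the members was -0.14. That scaling adds -0.10 to the change of every gene. The difference of medians, members minus those genes, stays at -0.09. The spread was wider than at 24 h, from -2.01 for DDX28 to 0.62 for DDX39A. The summed FPKM of the family, 3256 in the control of that table, was 3313 with PDP, while its share of all FPKM went from 0.49997% to 0.473%.

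**Figure D1:**
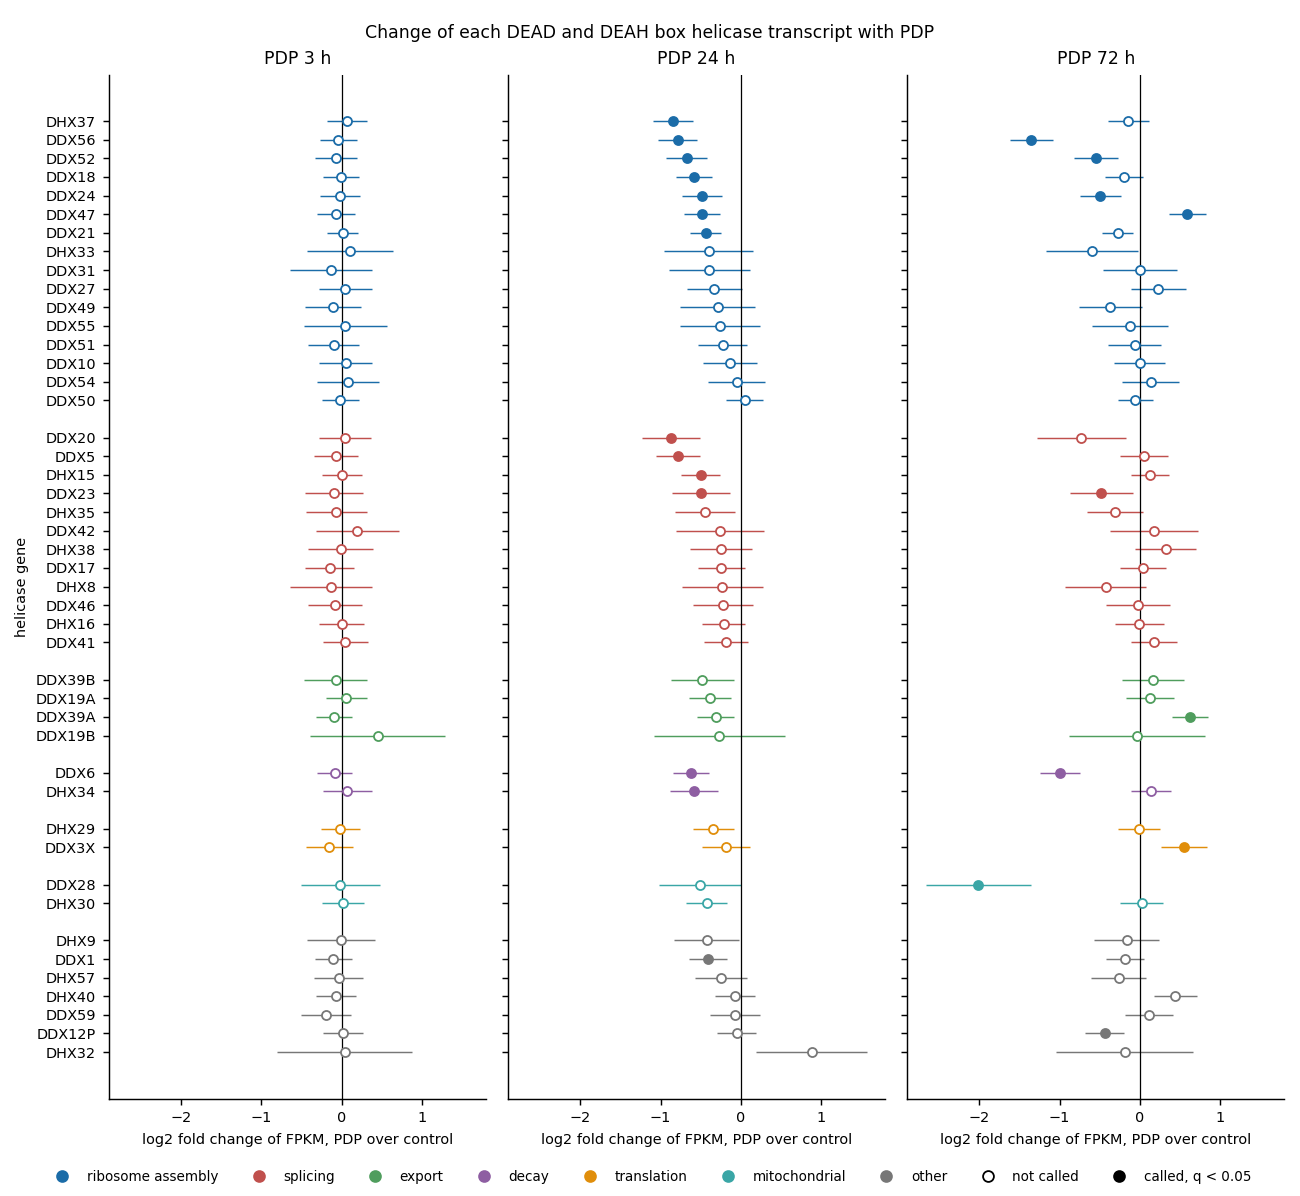
Log2 change of each helicase against the control at each time, grouped by role, with bars of 1 SE as implied by the authors' statistic and filled points for calls at q under 0.05. All 14 calls at 24 h are negative, and the 10 calls at 72 h are 7 negative and 3 positive.

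**Figure D2:**
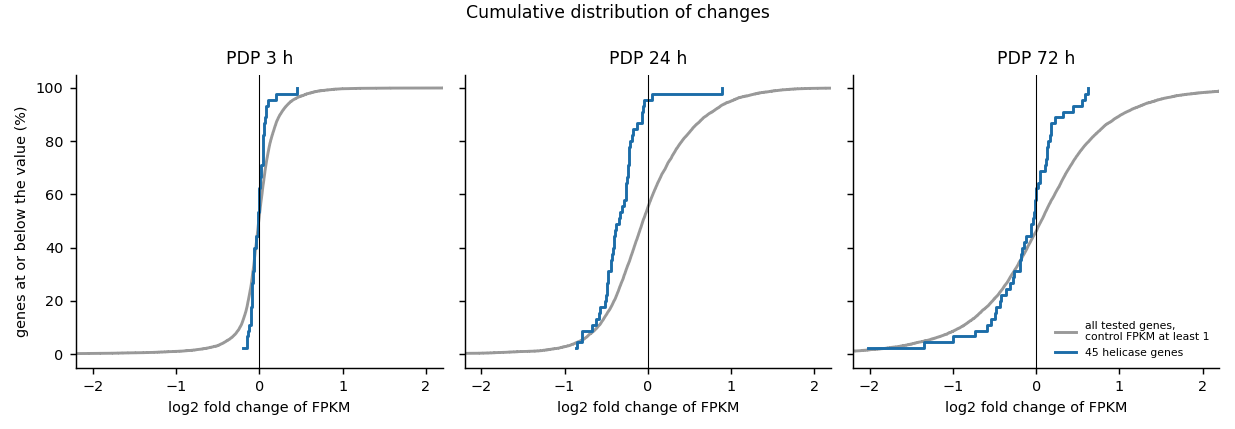
Cumulative share of genes at or below each log2 change for the 45 helicases (blue) and for all tested genes with a control of at least 1 FPKM (grey). The curves lie close together at 3 h, and at 24 h the helicase curve lies to the left, with medians of -0.34 and -0.06.

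Across both later times 18 helicases were called at least once and 27 were not. DDX23, DDX24, DDX52, DDX56 and DDX6 were called lower at both times. DDX1, DDX18, DDX20, DDX21, DDX5, DHX15, DHX34 and DHX37 were called lower at 24 h and not at 72 h. DDX47 was called lower at 24 h and higher at 72 h. DDX39A and DDX3X were called higher, and DDX12P and DDX28 lower, at 72 h and not at 24 h. A call at one time and not at the other was not tested as a difference between times.

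**Figure D3:**
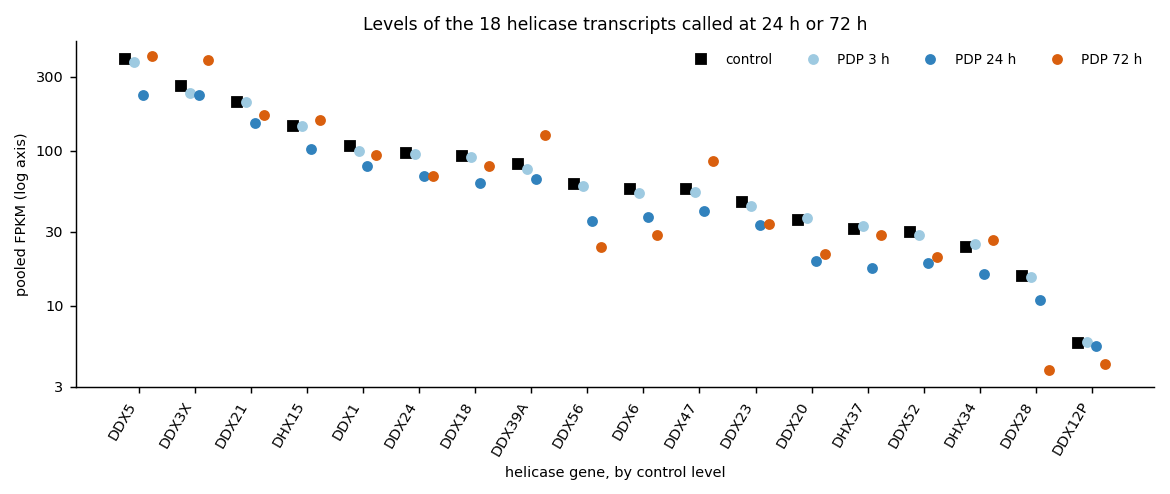
Pooled FPKM on a log axis of the 18 helicases called at 24 h or 72 h, ordered by control level, in the control (black) and with PDP at 3 h, 24 h and 72 h on the scale of the 3 h control, with no error available. The values run from 3.82 FPKM for DDX28 at 72 h to 406 FPKM for DDX5 at 72 h. The 24 h values of all 18 lie below the control (17 of 18 with equal FPKM sums). For 14 of them, chosen by a call lower at 24 h, this follows from the choice.

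The 16 helicases of ribosome assembly had 7 calls at 24 h, all lower (43.75%), and 3 lower and 1 higher at 72 h (18.75% and 6.25%). Among tested genes with a control of at least 1 FPKM, 9.46% were called lower at 24 h. At 72 h 14.5% of them were called lower and 18.7% higher. Their median log2 change was -0.40 at 24 h and -0.13 at 72 h (-0.23 and -0.24 with equal FPKM sums). DDX56, a nucleolar helicase of large-subunit assembly, had 61.2 FPKM in the control, 59.5 at 3 h, 35.4 at 24 h and 24.0 at 72 h. It was the gene of this role with the largest decrease at 72 h. Its log2 change was -0.79 at 24 h (SE 0.25, q = 9.1e-04) and -1.35 at 72 h (SE 0.27, q = 3.9e-04) in the authors' deposited table.

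DHX37, which frees the U3 small nucleolar RNA from the precursor of the small subunit, had 31.4 FPKM in the control, 32.8 at 3 h, 17.4 at 24 h and 28.4 at 72 h. The level was low at 24 h and nearer the control at 72 h. Its log2 changes were -0.85 (SE 0.25, q = 9.1e-04) and -0.15 (SE 0.25, q = 0.528) at those times in the authors' deposited table. With equal FPKM sums they were -0.68 and -0.25. DDX52, a helicase of small-subunit assembly, had 29.9 FPKM in the control, 28.5 at 3 h, 18.7 at 24 h and 20.5 at 72 h. It stayed low, with log2 changes of -0.68 (SE 0.25) and -0.54 (SE 0.28). DDX18, a nucleolar helicase of pre-ribosomal particles, had 91.9, 91.3, 61.6 and 79.9 FPKM in the same order, and its log2 changes were -0.58 (SE 0.23) and -0.20 (SE 0.23, not called).

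DDX24, a nucleolar helicase of large-subunit assembly, had 96.6 FPKM in the control, 95.2 at 3 h, 69.0 at 24 h and 68.6 at 72 h. Both later values lay at the same level on this scale, with log2 changes of -0.48 (SE 0.24) and -0.49 (SE 0.25). With equal FPKM sums the changes were -0.32 and -0.60. DDX47, needed early in the processing of ribosomal RNA, had 56.7 FPKM in the control, 54.0 at 3 h, 40.6 at 24 h and 85.5 at 72 h. It was the single member called in opposite directions, with log2 changes of -0.48 (SE 0.23, q = 0.0210) at 24 h and 0.59 (SE 0.23, q = 0.00217) at 72 h in the authors' deposited table.

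DDX21, which takes part in transcription and processing of ribosomal RNA, was the most abundant member of this role. It had 205 FPKM in the control, 207 at 3 h, 152 at 24 h and 169 at 72 h. The log2 change was -0.44 at 24 h (SE 0.19, q = 0.0175) and -0.28 at 72 h (SE 0.19, q = 0.104) in the authors' deposited table. Its close paralogue DDX50, the neighbouring gene on chromosome 10, had 31.5, 31.2, 32.6 and 30.2 FPKM. DDX50 had log2 changes of 0.05 (SE 0.23) and -0.06 (SE 0.22), not called at either time, and the difference between the paralogues was not tested. The other 8 members of the role (DDX10, DDX27, DDX31, DDX49, DDX51, DDX54, DDX55 and DHX33) were called at no time. Their log2 changes ran from -0.40 to -0.05 at 24 h and from -0.59 to 0.23 at 72 h.

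The 12 splicing helicases had 4 calls at 24 h, all lower (33.3%), and 1 at 72 h, also lower (8.33%). Among tested genes with a control of at least 1 FPKM, 9.46% and 14.5% were called lower at these times. Their median log2 change was -0.26 at 24 h (-0.09 with equal FPKM sums) and 0.02 at 72 h, where equal FPKM sums turned it to -0.09. DDX5, a helicase and cofactor of transcription and splicing, had 393 FPKM in the control, 375 at 3 h, 228 at 24 h and 406 at 72 h. The low value stood at 24 h alone. Its log2 change was -0.79 at 24 h (SE 0.28, q = 9.1e-04) and 0.05 at 72 h (SE 0.30, q = 0.878, and -0.06 with equal FPKM sums) in the authors' deposited table. Its paralogue DDX17 had 355, 320, 300 and 365 FPKM, with log2 changes of -0.24 (SE 0.29) and 0.04 (SE 0.28, and -0.06 with equal FPKM sums), not called at either time. How reads that fit both paralogues were assigned is not given in the sources used here.

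DDX20 (Gemin3), a part of the SMN complex that loads Sm proteins on spliceosomal RNAs, had 35.6 FPKM in the control, 36.6 at 3 h, 19.5 at 24 h and 21.5 at 72 h. It had the largest decrease of the family at 24 h. Its log2 change was -0.87 at 24 h (SE 0.36, q = 9.1e-04) and -0.73 at 72 h (SE 0.55, q = 0.108) in the authors' deposited table. DDX23, which helps displace the U1 particle from the splice site, had 46.8, 43.8, 33.2 and 33.5 FPKM. It was called lower at both times, with log2 changes of -0.50 (SE 0.36, q = 0.0464) and -0.48 (SE 0.39, q = 0.0377) in the authors' deposited table.

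DHX15, which takes the spliceosome apart after splicing, had 145 FPKM in the control and at 3 h, 102 at 24 h and 158 at 72 h. The log2 change was -0.50 (SE 0.24) at 24 h and 0.13 (SE 0.24, not called) at 72 h. The 7 others (DDX41, DDX42, DDX46, DHX8, DHX16, DHX35 and DHX38) were called at no time. They include DHX16, DHX38 and DHX8, which act one after the other in the spliceosome, with log2 changes at 24 h of -0.22, -0.25 and -0.23. At 72 h these were -0.01, 0.32 and -0.43.

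Of the 4 export helicases none was called at 24 h and 1 was called higher at 72 h (25%). Among tested genes with a control of at least 1 FPKM, 17.8% were called at 24 h and 18.7% were called higher at 72 h. All 4 lay below the control at 24 h, with a median log2 change of -0.35 (-0.18 with equal FPKM sums). DDX39A had 81.7 FPKM in the control, 76.5 at 3 h, 65.8 at 24 h and 126 at 72 h. It was the member with the largest increase at 72 h, with a log2 change of -0.31 (SE 0.23, q = 0.162) at 24 h and 0.62 (SE 0.23, q = 0.00163) at 72 h in the authors' deposited table. Its paralogue DDX39B, which loads the export adaptor ALYREF on mRNA, had 312, 296, 224 and 349 FPKM, with log2 changes of -0.48 (SE 0.39) and 0.16 (SE 0.38), not called.

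DDX39B shares its locus with a readthrough gene, ATP6V1G2-DDX39B, that holds its exons. That gene had 83.6 FPKM in the control and, within its own tables, 57.4 against 86.6 FPKM at 24 h and 31.7 against 81.0 at 72 h. Its log2 change at 72 h was -1.35 (q = 0.0256 in the authors' deposited table), opposite in sign to that of DDX39B. The split of reads between both genes is uncertain. DDX19A and DDX19B, which release export factors from mRNA at the outer face of the nuclear pore, also share a locus, on chromosome 16. DDX19A had 38.8, 40.4, 29.8 and 42.2 FPKM, and DDX19B 5.80, 7.92, 4.82 and 5.66 FPKM. Neither was called at any time.

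Both decay helicases were called lower at 24 h, and 1 of them at 72 h. Among tested genes with a control of at least 1 FPKM, 9.46% and 14.5% were called lower at these times. DDX6, a cofactor of decapping and of translational repression found in P-bodies, had 57.0 FPKM in the control, 53.6 at 3 h, 37.1 at 24 h and 28.6 at 72 h. The value with PDP was lower at 72 h than at 24 h, with log2 changes of -0.62 (SE 0.23, q = 9.1e-04) and -0.996 (SE 0.25, q = 3.9e-04) in the authors' deposited table. DHX34, which acts in nonsense-mediated decay together with UPF1, had 23.9, 25.2, 16.0 and 26.3 FPKM. Its log2 change was -0.58 (SE 0.30, q = 0.00630) at 24 h and 0.14 (SE 0.25, q = 0.527) at 72 h in the authors' deposited table.

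Of the translation helicases, DDX3X had 261 FPKM in the control, 234 at 3 h, 230 at 24 h and 382 at 72 h. It was called higher at 72 h, with log2 changes of -0.18 (SE 0.30, q = 0.560) and 0.55 (SE 0.29, q = 0.0105) at the later times in the authors' deposited table. DHX29, which helps the small ribosomal subunit scan structured leaders, had 13.8, 13.7, 10.9 and 13.7 FPKM and was not called.

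The mitochondrial pair, DDX28 and DHX30, are both known for the assembly of mitochondrial ribosomes. DDX28 had 15.4 FPKM in the control, 15.2 at 3 h, 10.8 at 24 h and 3.82 at 72 h. It had the largest decrease of the family at any time, a log2 change of -2.01 (SE 0.66, q = 0.00243) at 72 h in the authors' deposited table, and its change at 24 h was -0.51 (SE 0.51, not called). DDX28 lies in a locus of 18 genes in these tables. Its neighbours NFATC3 and DUS2 had log2 changes of -0.35 and -0.11 at 72 h, neither called. DHX30 had 62.6, 63.4, 46.5 and 63.6 FPKM, with log2 changes of -0.43 (SE 0.26) and 0.02 (SE 0.27, and -0.08 with equal FPKM sums), not called at either time.

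The remaining 7 members have other or less settled roles. DDX1, a part of the tRNA ligase complex, had 107 FPKM in the control, 99.3 at 3 h, 80.2 at 24 h and 93.6 at 72 h, and was called lower at 24 h with a log2 change of -0.41 (SE 0.23). DHX9, RNA helicase A, had 205, 204, 153 and 182 FPKM. Its changes of -0.42 (SE 0.40) and -0.17 (SE 0.40) were not called. DDX12P, a pseudogene whose sequence is close to that of a working helicase gene, had 5.73, 5.81, 5.52 and 4.22 FPKM. It was called lower at 72 h with a log2 change of -0.44 (SE 0.24), and the origin of its reads is uncertain. Without DDX12P the family had 9 calls at 72 h, 6 of them lower.

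DHX32 had 6.69 FPKM in the control, 6.88 at 3 h, 12.4 at 24 h and 5.86 at 72 h. It was 1 of 2 members above the control at 24 h, with the largest positive change there, 0.89, and an SE of 0.69 (q = 0.167 in the authors' deposited table). DHX40, DHX57 and DDX59 were not called at any time. At 24 h the median SE was 0.25 for the 14 called members and 0.34 for the 31 others, and the median control level was 59.1 and 31.5 FPKM. Single called members had larger SEs, such as DDX20 (0.36) at 24 h and DDX28 (0.66) at 72 h. A missing call among the low members does not show a steady level.

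Between 24 h and 72 h of PDP, on the scale of the 3 h control, 34 of the 45 helicases had the higher value at 72 h (75.6%), against 58.1% of 13353 genes with a control of at least 1 FPKM. With equal FPKM sums, which add -0.27 to every such log2 ratio, 19 of 45 (42.2%) were higher, against 36.4%. The median log2 ratio of 72 h over 24 h was 0.21 for the members and 0.10 for those genes, and with equal sums -0.07 and -0.17. All 4 export helicases, 11 of 12 splicing helicases and 11 of 16 in ribosome assembly had the higher value at 72 h, and with equal sums 3 of 4, 6 of 12 and 5 of 16. The direction for the family, splicing and ribosome assembly thus depended on the scaling. DDX47 had the largest ratio (1.07) and DDX28 the smallest (-1.51). Of the 11 with the lower value at 72 h, the next were DHX32 (-1.08), DDX56 (-0.56), DDX12P (-0.39) and DDX6 (-0.38). The authors' tables hold no test of 72 h against 24 h.

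**Figure D4:**
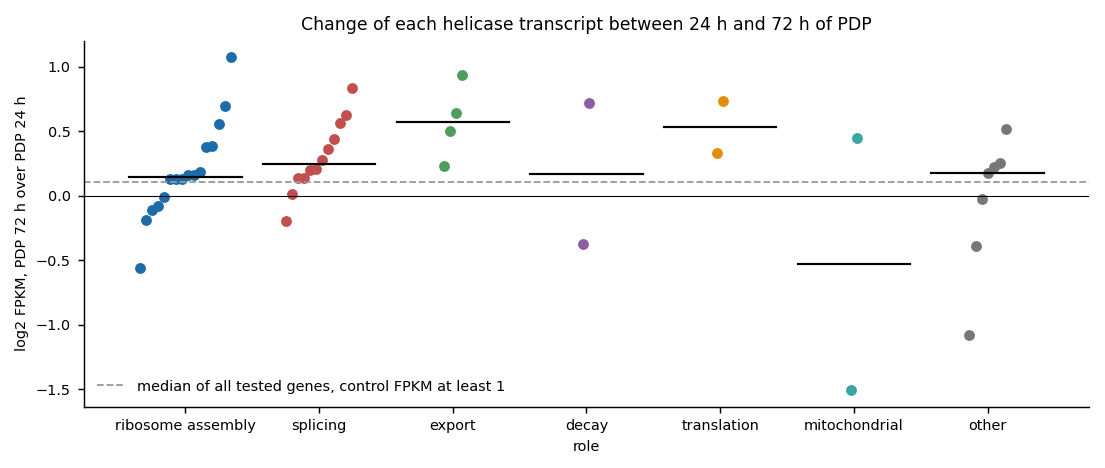
Log2 ratio of PDP at 72 h over PDP at 24 h for each helicase, by role, with the median over all tested genes with a control of at least 1 FPKM as a dashed line and the median of each role as a bar. The values run from -1.51 for DDX28 to 1.07 for DDX47, and no error is available for them. With equal FPKM sums every value would be shifted by -0.27.

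Genes that work beside the helicases were taken from fixed lists. For all these lists the shares to compare are those of tested genes with a control of at least 1 FPKM. These were 9.46% called lower and 8.33% higher at 24 h, and 14.5% lower and 18.7% higher at 72 h. Of 20 other ribosome assembly factors, 11 were called at 24 h, all lower (median log2 change -0.53), and 9 lower and 1 higher at 72 h (median -0.47). UTP14A, which activates DHX37, had 19.9 FPKM against 47.4 at 24 h and 16.8 against 44.2 at 72 h, log2 changes of -1.25 and -1.39. NIP7, a factor of pre-ribosomal RNA processing, had log2 changes of -1.12 and -1.59, and PNO1, a small-subunit factor, -0.94 and -0.84. DHX37 itself was not called at 72 h (-0.15, or -0.25 with equal FPKM sums) while UTP14A was called lower.

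Of 20 splicing factors, 7 were called lower at 24 h (median -0.42) and 5 lower at 72 h (median -0.22), with none higher. TFIP11, the cofactor of DHX15, had a log2 change of -0.84 at 24 h and of -0.36 at 72 h, where it was not called. PRPF4, a protein of the tri-snRNP, had -0.79 and -0.96, both called. Of 15 export factors, 4 were called lower at 24 h (median -0.34), and 6 lower and 2 higher at 72 h (median 0.03, or -0.08 with equal FPKM sums).

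The main export receptor NXF1 had 22.2 FPKM against 58.9 at 24 h and 24.6 against 54.9 at 72 h, log2 changes of -1.40 and -1.16, and its partner NXT1 had -0.85 and -0.88. THOC1, a subunit of the complex that holds DDX39B, was called higher at 72 h (1.05). GLE1, the activator of DDX19A and DDX19B, was called lower at 72 h (-0.41). Of 20 decay factors, 2 were called lower at 24 h, UPF1 (-0.55) and the DDX6 partner PATL1 (-0.50). At 72 h 1 was called lower, LSM1 (-0.84), and 5 higher, among them the exonuclease XRN1 (1.06) and the poly(A)-binding protein PABPC1 (0.93). The median of this list was -0.21 at 24 h and 0.06 at 72 h, where equal FPKM sums turned it to -0.04.

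**Figure D5:**
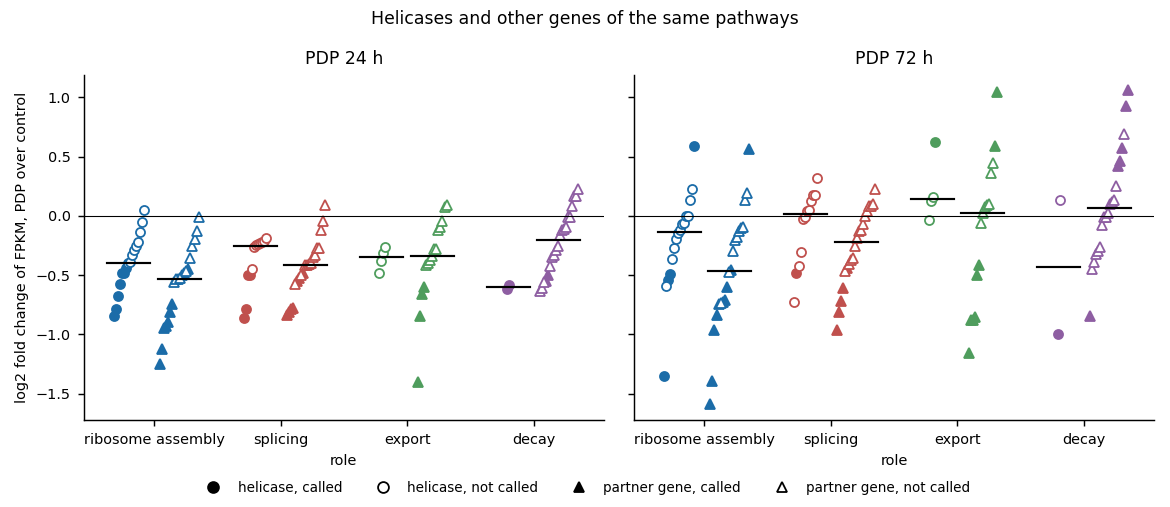
Log2 changes at 24 h and 72 h of the helicases of each role beside those of the other factors of the same process, 1 point per gene with the median as a bar. The medians at 24 h are -0.40 and -0.53 for ribosome assembly, -0.26 and -0.42 for splicing, -0.35 and -0.34 for export, and -0.60 and -0.21 for decay, helicases first.

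The G-quadruplex pull-down was read at the helicase loci from the authors' deposited list of 51446 peaks. A peak centre lay in 27 of 44 helicase loci (61.4%, Wilson 95% interval 46.6 to 74.3), against 55.9% of 10251 loci with a gene at 1 FPKM or more. The 2 DDX19 genes count as 1 locus. The helicase loci held 1.72 peaks per 100 kb and the loci of all genes at 1 FPKM or more 1.96, with median locus lengths of 57.7 and 47.4 kb. The share over all those loci lies inside the interval of the helicases. Of the 14 members called lower at 24 h, 8 lay in a locus with a peak, as did 19 of the 31 not called. These intervals cover counting error alone.

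The peaks of highest score in helicase loci lay in those of DDX55 (31.3) and DHX8 (26.85), where the median score of the list was 10.96. DDX20 had 8 peaks in its locus of 285 kb, which it shares with other genes, and DDX5 had 3 in 162 kb. No peak centre lay within 1 kb of the RefSeq start sites of the 40 members with one, which allows a share of up to 8.76% (Wilson), against 3.37% of all 9465 genes at 1 FPKM or more with a start site in the table. Within 5 kb there were 7 of 40 (17.5%) against 23.1%. The nearest centre lay 1120 bases from a start of DDX1.

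Promoter sequences were read to see whether the members that fell together share G-tracts. RefSeq promoter windows on GRCh38.p14, from 250 bases before a start to 50 after it, matched 40 of the 45 members. DDX12P, DDX18, DDX49, DDX52 and DHX33 were not matched. The motif searched was 4 runs of GGG with spacers of 1 to 7 bases, on both strands. It stood in 12 of 40 helicase genes (30%, Wilson 95% interval 18.1 to 45.4), in 42.3% of genes at 1 FPKM or more and in 27.8% of all genes of the table. With spacers of 1 to 12 bases it stood in 14 of 40 (35%, Wilson 95% interval 22.1 to 50.5). The matching shares were then 59.4% and 40.5%. The share of genes at 1 FPKM or more thus lay inside the helicase interval with the shorter spacers and above it with the longer ones. The median GC content of the windows was 61% for helicases and 65% for genes at 1 FPKM or more. Among members called lower at 24 h with a window, 4 of 12 held the motif with spacers of 1 to 7 bases, and among those not called 8 of 28. The 4 are shown with the motif in capitals, each on the strand of its gene. For DHX37 the guanines are on the other strand and read as runs of C.
DDX6: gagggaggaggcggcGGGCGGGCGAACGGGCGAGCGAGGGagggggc
DHX34: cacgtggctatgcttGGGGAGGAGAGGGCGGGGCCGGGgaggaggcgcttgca
DHX37: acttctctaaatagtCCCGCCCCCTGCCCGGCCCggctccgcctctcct
DDX5: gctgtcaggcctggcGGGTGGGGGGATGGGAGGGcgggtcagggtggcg
The DDX6 stretch is chr11:118791165-118791211 on the minus strand, that of DHX34 chr19:47349065-47349117 on the plus strand, that of DHX37 chr12:124989200-124989248 on the minus strand and that of DDX5 chr17:64506010-64506058 on the minus strand. DDX6 and DHX34 are the 2 decay helicases, so both members of that role held the motif (Wilson 95% interval 34.2 to 100). It stood in 2 of 12 ribosome assembly helicases, 4 of 12 splicing helicases and 1 of 4 export helicases with a window. With 2 genes the decay share says little, beside 42.3% of genes at 1 FPKM or more. Neither DDX6 nor DHX34 had a peak centre within 1 kb of its start.

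A second short sequence, CCGGAAG, the kind of core bound by ETS transcription factors, stood on either strand in 21 of 40 helicase promoters (52.5%, Wilson 95% interval 37.5 to 67.1). It stood in 23.0% of genes at 1 FPKM or more and in 12.2% of all genes of the table. It was split evenly with respect to the calls, with 7 of 12 members called lower at 24 h and 14 of 28 not called. The sequence was searched after the promoters had been seen, together with 3 other short motifs, so its share is a description. Shown in capitals are 3 called members and DDX50, the paralogue of DDX21 that was not called.
DDX21: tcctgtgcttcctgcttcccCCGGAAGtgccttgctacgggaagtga
DDX50: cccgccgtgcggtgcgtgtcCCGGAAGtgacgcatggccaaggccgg
DDX1: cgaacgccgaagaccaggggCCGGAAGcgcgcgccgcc
DDX56: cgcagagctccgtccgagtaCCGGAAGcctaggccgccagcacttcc
They lie at chr10:68956090-68956136, chr10:68901247-68901293 and chr2:15591830-15591867 on the plus strand and, for DDX56, at chr7:44574001-44574047 on the minus strand. The core shown begins 60 bases before the start in DDX21, 48 in DDX50, 18 in DDX1 and 119 in DDX56. DDX56 also held it 243 bases before the start and, on the other strand, at 97. DDX21 also had a window at another start, which did not hold it. Of the other motifs, also searched on both strands, CACGTG stood in 9 of 40 helicase promoters (22.5%) and 12.9% of genes at 1 FPKM or more. The shares were 47.5% and 44.0% for CCAAT, and 65% and 79.3% for GGGCGG. A match in these windows is no evidence that a factor binds there.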

How the data were processed

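Per the labels' protocols, poly(A) RNA was made into libraries with a stranded VAHTS kit and DNA with ThruPLEX. For RNA and DNA together, HISAT2 2.0.5, Bowtie2 2.2.9, Cufflinks 2.2.1, HOMER 4.9.1, Trim Galore 0.4.4, Picard, SAMtools 1.3.1 and the build GRCh38.p7 are listed, per the submitters' processing notes. Their settings are not given in the sources used here. The authors' deposited RNA values are FPKM, 1 pooled value per gene and condition in each of 3 tables. The p-value and q-value of each gene are the authors' own, from a test over all genes. The score in the authors' deposited statistic column gave the implied SE (log2 change divided by the statistic), and peaks carry a score of the authors with no stated unit. Depth per library is unknown.

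Groups were taken from the labels. Log2 changes are PDP over control FPKM, with no pseudocount. A call is q under 0.05. No test was run here, since each condition has 1 value. Members, roles, partner lists and settings were chosen with earlier results of these data known. Full values went to members called at any time, the 2 highest in each role, the extremes at each time and paralogue pairs, and up to 4 called genes were considered per partner list. GLE1, UPF1, PATL1 and EIF4A1 fall outside this rule and were chosen after their values were seen. Peaks were assigned by their centre to the loci of the RNA tables, and motifs were searched in RefSeq promoters. Calls, medians, the implied SE, peak counts and motif search were tested on simulated data, and scaling was not. Work was done in Python 3.11.15 with Matplotlib 3.10.9, SciPy 1.17.1, pandas 2.3.3 and NumPy 2.4.6. Alternatives were other q, fold and FPKM thresholds, a pseudocount of 1, the mean, and scaling to equal FPKM sums or to a median of 0. For peaks they were loci extended by 5 kb, any overlap and peaks above the median score. For the G-tract motif they were spacers of 1 to 12 bases. The median without DDX12P and the start-site windows were added after seeing the data.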

Additional observations from a re-analysis of the deposited data

Results flagged for a closer look

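DDX47, needed for early processing of ribosomal RNA, was called lower at 24 h (log2 change -0.48) and higher at 72 h (0.59) against the same control. It was singled out because its changes at both times were called in opposite directions. The difference between the times was not tested, since the tables hold 1 pooled value per condition.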

How the results depend on the processing

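Of 58 recomputed values, 48 kept their direction and stayed within 1 median SE of the members (for counts within 1.5 times, for shares within their interval), 6 changed sign and 4 moved. Within the 48, sizes still shifted: with equal FPKM sums the family median went from -0.34 to -0.18 at 24 h and from -0.03 to -0.14 at 72 h, and the splicing median at 24 h from -0.26 to -0.09. At q under 0.01 the calls went from 14 to 8 at 24 h and from 10 to 5 at 72 h. A minimum log2 change of 0.5 also left 8 at 24 h, the same 8 genes (DDX6, DHX34, DDX18, DDX52, DDX56, DHX37, DDX20 and DDX5). With equal FPKM sums the 3 h medians turned positive for the family (0.038), ribosome assembly (0.041), splicing (0.016), export (0.046) and decay (0.046), and the splicing median at 72 h turned to -0.089. Equal sums added 0.05, 0.17 and -0.10 to every log2 change at 3 h, 24 h and 72 h, and no called member changed sign. With peaks above the median score alone, 31.8% of helicase loci held a peak against 39.7% of all loci with a gene at 1 FPKM or more, where with all peaks the helicase share was the higher one (61.4% against 55.9%). With no FPKM minimum 15 genes were called at 24 h: the 14 members, all lower, and DHX58, called higher (log2 change 1.89). That every call at 24 h was lower thus holds only with the minimum. No paired analysis was possible because each condition is deposited as 1 value pooled over its replicates, and for the same reason no replicate could be left out. Unknown depth limits what can be said of members under 10 FPKM, whose implied SE reached 0.85.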

Other observations

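The 8 helicases under the minimum included sensors of viral RNA and germline helicases. DHX58 (LGP2), a regulator of RIG-I-like sensing, had 0.419 FPKM in the control and 1.56 FPKM with PDP at 24 h, a log2 change of 1.89 (q = 0.0359 in the authors' deposited table). At 72 h its change was 1.00 and not called. DDX58 (RIG-I) had 0.686 and 0.556 FPKM at 24 h and was not called. DDX60 had 0.726 and 1.39 FPKM at 24 h and was not called. The germline genes DDX4, DDX43 and DDX53 were under 0.1 FPKM in every condition.

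Of 8 related helicases with other symbols, 4 lay below the control at 24 h, 1 was called lower and none higher. Among tested genes with a control of at least 1 FPKM, 9.46% were called lower and 8.33% higher at that time. At 72 h 1 of the 8 was called lower and 1 higher, beside 14.5% and 18.7% of those tested genes. EIF4A3, the helicase of the exon junction complex, had 47.2 FPKM against 78.8 at 24 h and 46.7 against 73.5 at 72 h, log2 changes of -0.74 and -0.66, both called. EIF4A2, a translation initiation helicase, was called higher at 72 h (722 against 325 FPKM, log2 change 1.15), and its paralogue EIF4A1 was not called (0.18).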
